A study of Homo sapiens with 8 samples.

Results

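The step from the early to the late response to dexamethasone was described in CCRF-CEM-C7-14 cells by setting the 2 arrays of cells held for 10 h in the hormone against the 3 arrays of cells held for 2 h. These were 5 of the 8 arrays of the series, and all 42892 probe sets with a gene symbol in the platform annotation entered the comparison. CCRF-CEM-C7-14 is an established human T-cell acute lymphoblastic leukaemia line, a clone that responds to glucocorticoids, so every array came from the same clone. The cells were held in medium whose serum had been charcoal-stripped, a step that removes steroids, and then given 1 µM dexamethasone, a synthetic glucocorticoid, for 2 h or 10 h. The other 3 arrays held cells at 0 h without dexamethasone, and their values are given for level and enter the fit for its estimate of spread. No arrays of cells given vehicle for 2 h or 10 h were analysed here, so time in the hormone and time in that medium cannot be told apart. The labels call the arrays of a time biological replicates without saying what was repeated, so the p-values speak only of the spread among these arrays.

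Glucocorticoids bind the glucocorticoid receptor, a transcription factor that leaves its chaperones, enters the nucleus and binds DNA at pairs of short half-sites. Its direct target genes can respond early, and later changes can also follow from the proteins those targets encode. In immature T cells and in many lymphoid leukaemias the response ends in arrest of the cell cycle and in apoptosis, in which the BCL2 family member BIM has a known part, and this is a basis for the use of glucocorticoids in treating these leukaemias.

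Most genes whose change passed the threshold given below rose between 2 h and 10 h. Over all 19775 genes, 42.5% of differences were positive. IL7R, RUNX2, TNFSF8, ISG20, MACROD2, TRIB1, CH25H and the noncoding RNA gene LINC01120 each rose by more than 4-fold between these times, and 18 further genes rose by 2-fold or more. LTB and APLN fell. By the brightest probe set of each gene, 26 of 19775 genes rose (0.131%) and 2 fell (0.0101%) in limma (p below 0.05 after Benjamini-Hochberg adjustment), which are the changes meant by rose and fell below. Of the 42892 probe sets, 55 passed (0.128%), 53 up and 2 down, and the 10 h arrays did not overlap the 2 h arrays in any of the 55. By brightest probe sets, the 10 h arrays lay wholly above for 5.43% of all genes and wholly below for 9.29%. Probe sets that pass tend to lack overlap, so the count among the 55 is a description. Over all 42892 probe sets 1225 had an unadjusted p below 0.05 (507 up and 718 down), against 2145 expected if no gene differed. The counts of list members with an unadjusted p below 0.05 given below stand beside this share.

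**Figure D1:**
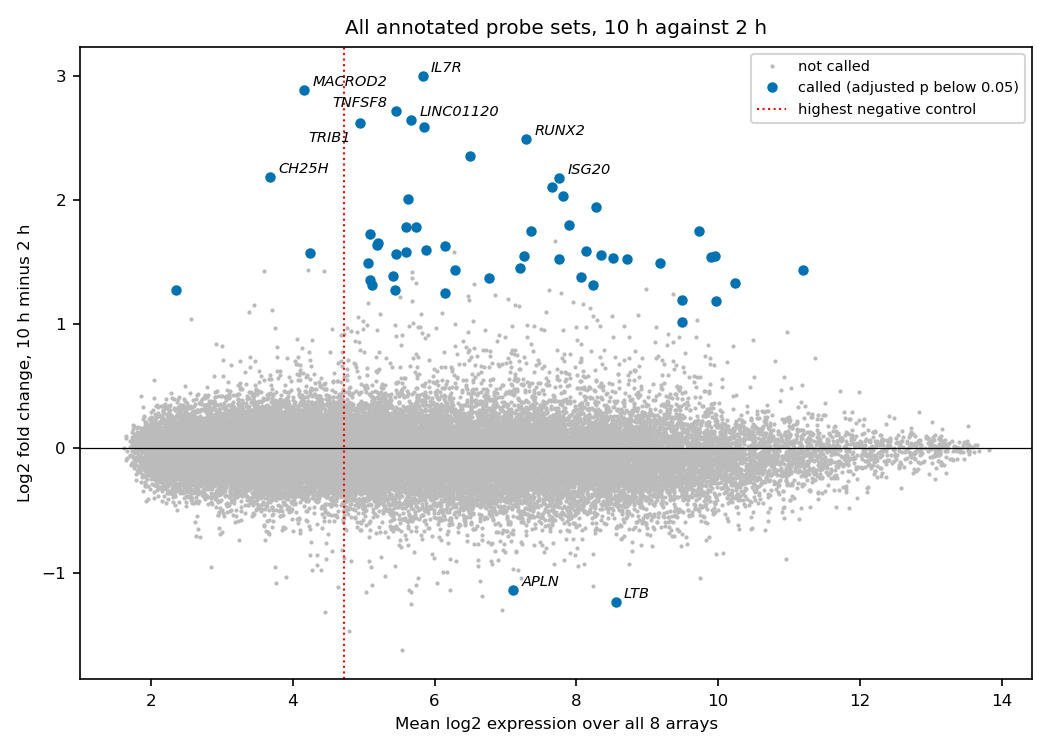
Each point is an annotated probe set, with its mean log2 expression over all 8 arrays on the horizontal axis and its log2 difference, 10 h minus 2 h, on the vertical axis. The 55 probe sets that passed are in blue, with 53 above 0 and 2 below it, and the dotted line marks the highest negative control at 4.73.

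The arrays were compared by 3 measures of quality, none of which could pass a test at this number. Correlations between arrays over all probe sets ranged from 0.988 to 0.993. The median log2 value of an array was 4.85 ± 0.15 over the 3 arrays at 2 h and 4.84 ± 0.11 over the 2 at 10 h (mean ± SD; exact two-sided permutation test, p = 0.9, 0.9 adjusted over 3 measures). The excess of actin signal at the 3′ end over the 5′ end, a measure of RNA integrity, was 0.51 ± 0.11 (2 h) and 0.33 ± 0.05 (10 h, mean ± SD over the same arrays; exact p = 0.2, adjusted 0.6). Both 10 h arrays (0.29 and 0.36) lay below all 2 h arrays (0.40 to 0.61) in this measure, and its part in the results was not tested. The same excess for GAPDH was 0.24 ± 0.12 at 2 h and 0.13 ± 0.15 at 10 h (exact p = 0.4, adjusted 0.6). With 3 against 2 arrays such a test cannot give a p below 0.1. The 3 arrays with the lowest medians were 0 h replicate 2, 2 h replicate 3 and 10 h replicate 1. Among these the smallest of the 55 differences was 0.90 (log2), and among the other arrays it was 0.96; their direction was fixed by the lack of overlap, so these values are a description. Of the 10 T-cell marker genes measured, 9 lay above every negative control on every array at 2 h and 10 h. CD3D, CD3E and LCK were among them, and CD2 was not. Of the markers of other cells, 6 of 11 for B cells, 2 of 10 for myeloid cells, 5 of 10 for NK cells, 5 of 8 for erythroid cells and megakaryocytes and 6 of 13 for epithelial and stromal cells lay above the controls in the same way. Over all 19775 genes, 13068 had a mean above the highest control, so such a count does not mark a cell type. Summed log2 values at 2 h were 92.2 to 94.2 for the 10 T-cell markers. They were 48.8 to 51.7 for the 10 NK-cell markers and 40.4 to 43.3 for the 10 myeloid markers, so by level the T-cell markers stood highest of these. No marker of any of these cell types passed in limma, and 1 NK-cell marker had an unadjusted p below 0.05. The summed NK-cell markers were 48.8 to 51.7 (log2 values) at 2 h and 51.6 to 52.4 at 10 h, and their part in the results was not tested. In such bulk samples, fewer cells that express a gene and less of its RNA per cell cannot be told apart.

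Of the known hormone-induced genes, TSC22D3 and FKBP5 read higher on every 2 h array than on every 0 h array and rose further by 10 h. TSC22D3, which encodes the anti-inflammatory protein GILZ and is a direct target of the receptor, read 8.64, 8.50 and 8.11 (log2 expression) on the 2 h arrays and 9.72 and 10.16 on the 10 h arrays, after 5.61, 5.51 and 5.80 without hormone. Both 10 h arrays lay above all 2 h arrays, and all 2 h arrays above all untreated ones. The difference between 10 h and 2 h was 1.52 ± 0.22 (log2, SE), a 2.88-fold rise with a 95% interval from 2.08 to 3.98 (limma adjusted p = 0.00669). Another probe set of TSC22D3 differed by 0.75 and the third, dim one by -0.06, and neither passed.

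FKBP5, a co-chaperone that lowers the receptor's affinity for hormone and is itself induced by it, read 11.09, 11.15 and 11.07 at 2 h and 12.50 and 12.57 at 10 h, with 10.38, 10.00 and 10.77 in untreated cells. The 2 h values lay close together, below both 10 h values and above the untreated ones. FKBP5 rose by 1.43 ± 0.22 (log2, SE; adjusted p = 0.0116), and all 3 of its probe sets rose, by 1.43 to 1.80. TXNIP, which binds thioredoxin and restrains glucose uptake, read 8.44, 9.05 and 8.85 at 2 h against 10.08 and 10.47 at 10 h. Its 2 h arrays overlapped the untreated ones (9.15, 8.65 and 8.74), and it then rose by 1.50 ± 0.23 (adjusted p = 0.0125). CD53, a tetraspanin of leukocytes, rose by 1.18 ± 0.19 (adjusted p = 0.0141) from 9.77, 9.73 and 9.77 to 11.02 and 10.85.

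Other hormone-induced genes were high at 2 h and had no passing difference afterwards. BTG1, an antiproliferative gene, read 8.92, 8.39 and 8.51 in untreated cells, 10.77, 10.51 and 10.08 at 2 h and 10.98 and 10.85 at 10 h. Most of its difference from untreated cells was thus present at 2 h, and its difference between 10 h and 2 h was 0.46 ± 0.23 (log2; adjusted p = 1.00). DDIT4, an inhibitor of mTOR signalling, read 10.22, 9.78 and 10.18 without hormone, 11.04, 10.90 and 10.94 at 2 h and 11.20 and 11.32 at 10 h, a later difference of 0.30 ± 0.20. NR3C1, the gene of the glucocorticoid receptor itself, read 11.24, 10.72 and 10.92, then 12.27, 12.12 and 11.55, then 12.36 and 12.53. Its 10 h minus 2 h difference was 0.46 with a 95% interval from -0.04 to 0.97, and its 5 probe sets differed by 0.37 to 0.91, none passing. SOCS1, an inhibitor of cytokine signalling, had a large difference that did not pass: 7.35, 7.35 and 6.45 at 2 h, 8.34 and 8.23 at 10 h, or 1.24 ± 0.29 (adjusted p = 0.245). CD69, an early activation marker, read 6.85, 6.42 and 7.82 at 2 h and 7.94 and 7.01 at 10 h, so the arrays overlapped.

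Across a list of 52 measured hormone-induced genes, 6 rose (IL7R, ISG20, TSC22D3, FKBP5, TXNIP and CD53) and none fell, while 42 had positive differences. The list was chosen with earlier results of these data known, so its counts and median are a description. The list's median difference was 0.30 (log2), against -0.03 over all 19775 genes, of which 42.5% were positive. The 10 h arrays lay above all 2 h arrays for 30 of the 52 and below for none, where the shares over all genes were 5.43% above and 9.29% below. The mean of the list on an array was 7.17 to 7.41 at 0 h, 7.40 to 7.70 at 2 h and 8.07 to 8.12 at 10 h, so the 10 h arrays stood apart from both earlier times. Among members that did not pass, PIK3IP1, an inhibitor of PI3K, differed by 1.67 ± 0.31 (adjusted p = 0.0544) and TP53INP1 by 1.33 ± 0.29 (adjusted p = 0.173), 2 genes singled out after their values were seen. Of the receptor with its chaperones and cofactors, 19 genes measured, only FKBP5 rose, and the median was -0.05.

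**Figure D2:**
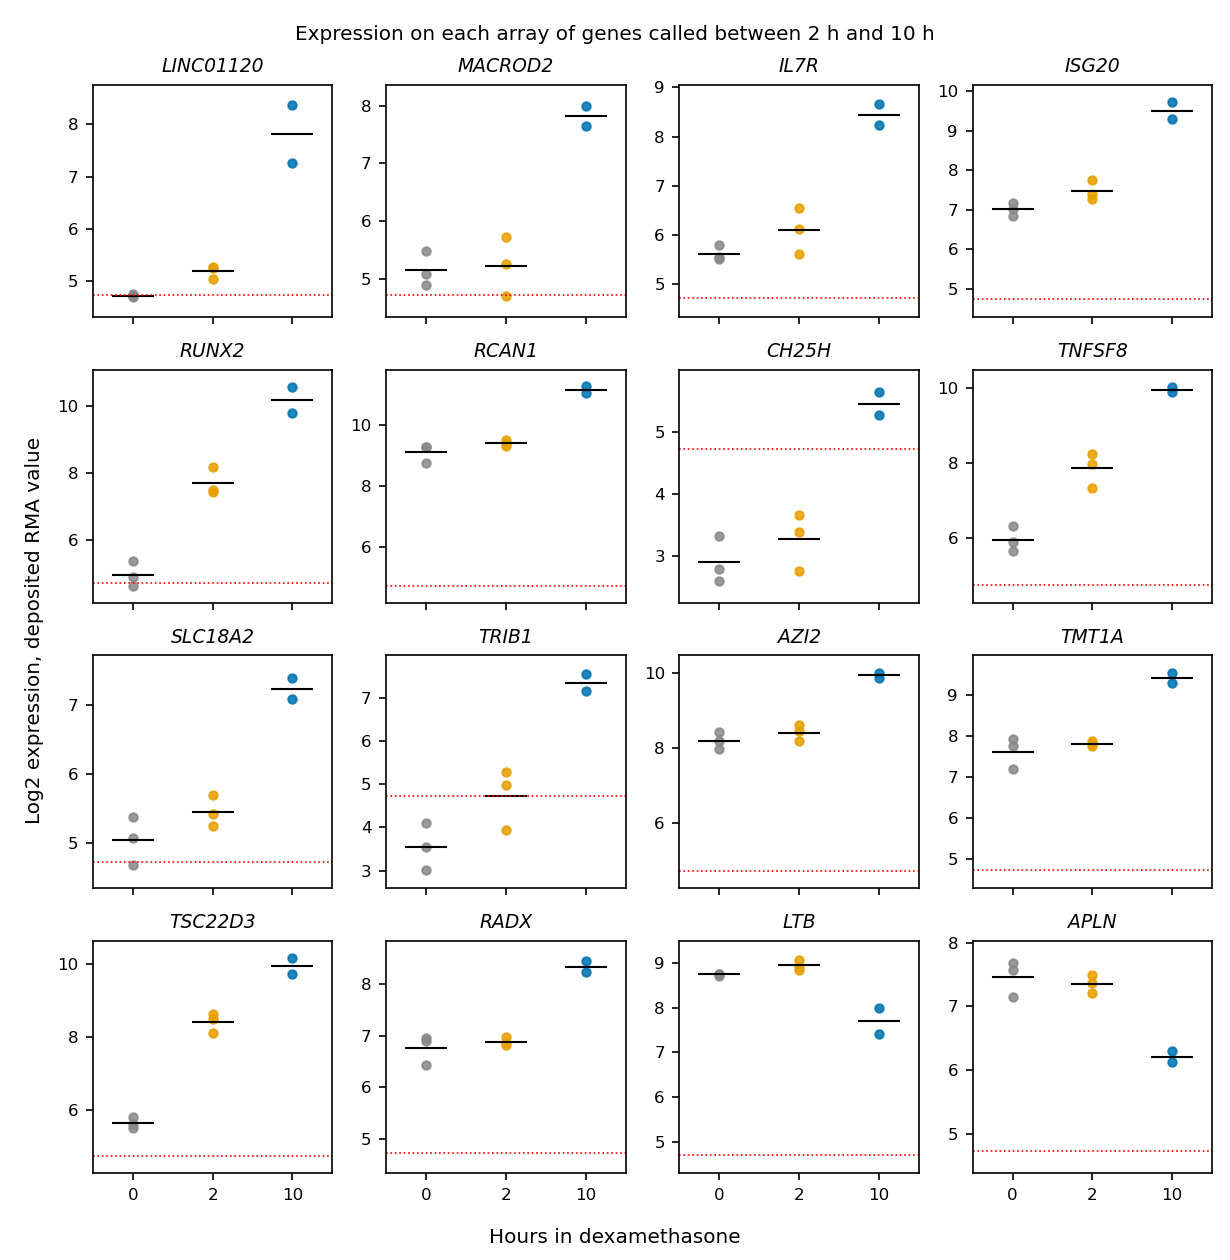
Log2 expression of 16 genes, by brightest probe set, on each array at 0, 2 and 10 h in dexamethasone. Each point is 1 array with a bar at each mean, each vertical axis is scaled to its gene, and the highest negative control (4.73) is dotted. TSC22D3, RUNX2 and TNFSF8 stepped up at both times, IL7R, MACROD2, RCAN1 and TMT1A mainly between 2 h and 10 h, and LTB and APLN stepped down.

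Among the signalling receptors and ligands, IL7R moved most. It encodes the alpha chain of the interleukin-7 receptor, which signals through JAK kinases and STAT5 and sustains developing T cells. IL7R read 6.13, 6.54 and 5.62 at 2 h, close to 5.50, 5.55 and 5.79 in untreated cells, and 8.23 and 8.66 at 10 h. Its rise was 2.35 ± 0.25 (log2, SE), or 5.11-fold (adjusted p = 0.00061), and a second probe set rose by 3.00 (adjusted p = 7.34e-06), the smallest p of the comparison. In the list of the IL7R, JAK, STAT and SOCS genes, IL7R alone of 25 measured rose and none fell, with a median of 0.01. The 10 h arrays lay above all 2 h arrays for 8 of these and below for 4, against 5.43% and 9.29% of all genes. JAK2 (1.03), STAT4 (1.08) and the STAT5-induced kinase gene PIM2 (1.09) were among those above, each without passing, and were singled out after their values were seen.

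TNFSF8 encodes CD30 ligand, a membrane cytokine of the TNF superfamily. Its arrays read 8.24, 7.97 and 7.34 at 2 h and 10.01 and 9.89 at 10 h, after 6.32, 5.64 and 5.87 at 0 h, and the 3 times did not overlap. The late rise was 2.11 ± 0.26 (adjusted p = 0.00205), or 4.31-fold, and 2 of its 3 probe sets rose. LTB, which encodes lymphotoxin beta of the same superfamily, moved the other way: 8.76, 8.75 and 8.71 at 0 h, 9.07, 8.84 and 8.91 at 2 h, and 7.41 and 7.99 at 10 h. LTB fell by 1.24 ± 0.21 on the log2 scale (adjusted p = 0.0218) after being slightly above the untreated level at 2 h. A second LTB probe set, also above the negative controls, showed no such fall (-0.00), so the 2 probe sets disagreed. In the TNF superfamily list, TNFSF8 alone of 20 genes rose, with a median of -0.05. In the NF-kB and cytokine list, 9 of 26 genes were positive and 17 negative, and LTB was the only one to pass.

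APLN, the gene of the peptide hormone apelin, was the other gene that fell. It read 7.49, 7.37 and 7.21 at 2 h, within the untreated range of 7.16 to 7.68, and 6.30 and 6.12 at 10 h. The fall was 1.14 ± 0.21 on the log2 scale, written as a difference of -1.14 (adjusted p = 0.0475), and its second probe set did not move (-0.00). LY96, which encodes the MD-2 subunit of the endotoxin receptor, rose by 1.28 ± 0.21 (adjusted p = 0.0163) from 5.51, 5.16 and 5.12 to 6.38 and 6.70. ROR1, an orphan receptor tyrosine kinase, had 1 passing probe set of 3, and that probe set was below the highest negative control on all 8 arrays, so its level there was not measurable.

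Of the transcription factors, RUNX2 and JUN rose. RUNX2, a runt-family factor best known from bone formation, was low in untreated cells and stepped up at both times: 5.38, 4.63 and 4.89 at 0 h, 7.43 to 8.16 at 2 h, and 10.57 and 9.79 at 10 h. Its late rise was 2.49 ± 0.29 (log2, SE), or 5.62-fold (adjusted p = 0.00111), with no overlap between any of the times. RUNX2's 6 probe sets ranged from -0.19 to 2.49 in the late difference, and 2 of them rose. Only on the brightest, whose values are given here, did every 2 h array lie above every 0 h array. JUN, a component of AP-1, read 8.05, 8.41 and 7.53 at 2 h, overlapping 7.95, 7.76 and 7.95 at 0 h, and 9.57 and 9.54 at 10 h. It rose by 1.56 ± 0.23 (adjusted p = 0.0102), and 2 of its 4 probe sets rose. JUN was the only one of 25 AP-1 and immediate early genes to pass, and the list's median was -0.00. KLF2, a quiescence factor of T cells, differed by 0.74 ± 0.23 (adjusted p = 0.915), with 6.52 and 6.45 at 10 h above 5.85, 6.10 and 5.31 at 2 h.

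Regulators of signalling that rose differed in their levels before 10 h. RCAN1, an inhibitor of the phosphatase calcineurin, read 9.29, 8.76 and 9.27 at 0 h, 9.33, 9.50 and 9.38 at 2 h and 11.04 and 11.27 at 10 h, a rise of 1.75 ± 0.21 (adjusted p = 0.00159). AZI2, an adaptor of the kinase TBK1, read 8.17, 7.96 and 8.43 at 0 h, 8.60, 8.45 and 8.17 at 2 h and 10.00 and 9.86 at 10 h, and 5 of its 6 probe sets rose, by 1.39 to 1.94. TRIB1, a pseudokinase that directs proteins to degradation, read 3.55, 4.09 and 3.02 at 0 h, 5.27, 4.98 and 3.93 at 2 h and 7.55 and 7.14 at 10 h. Because its mean at 2 h lay at the highest negative control (4.73), its 6.14-fold rise (adjusted p = 0.00363) compares a measured level with one near background. PTPRM, a receptor tyrosine phosphatase, rose by 1.43 ± 0.21 (adjusted p = 0.00669), and RIPOR2 by 1.37 ± 0.22 (adjusted p = 0.0168). USP53, a member of the ubiquitin-specific protease family, rose by 1.58 ± 0.24 (adjusted p = 0.0117) with 3 of 4 probe sets passing. UBASH3B, a phosphatase that restrains T-cell receptor signalling, and AKAP13, an anchor of protein kinase A, each passed with 1 probe set that was not their brightest, by 1.38 and 1.55. Their brightest probe sets differed by 1.13 and 0.95 without passing. In the PI3K, mTOR and FOXO list, TRIB1 alone of 29 genes rose, 16 were positive, and the median was 0.06.

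The death genes changed at few points. BCL2L11 encodes BIM, which binds the protective BCL2 proteins and sets off apoptosis, and its 7 probe sets all had positive differences, from 0.25 to 1.53. Of these, 4 rose. On the probe set with the largest difference the arrays read 8.71, 8.68 and 7.96 at 2 h and 9.82 and 10.14 at 10 h, after 7.66, 7.48 and 7.64 at 0 h, a rise of 1.53 ± 0.24 (adjusted p = 0.0116). The brightest probe set differed by 0.73 ± 0.22 and did not pass (adjusted p = 0.811), with 8.95, 9.02 and 8.76 at 2 h and 9.99 and 9.29 at 10 h. Both probe sets had the 10 h arrays above all 2 h arrays. GSDME, a gasdermin that forms pores in the membrane once caspases cut it, rose by 1.60 ± 0.28 (adjusted p = 0.0308) from 6.05, 5.41 and 5.33 to 7.34 and 7.06.

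The protective members of the BCL2 family had small differences, none passing. BCL2 differed by -0.24 ± 0.25 (log2), MCL1 by 0.04 ± 0.19 and BCL2L1 by -0.06 ± 0.21, and the 2 h and 10 h arrays overlapped for each. The killers BMF (-0.19 ± 0.19) and PMAIP1 (-0.20 ± 0.24) likewise overlapped. By brightest probe sets, none of 17 BCL2-family genes passed in limma, 1 had an unadjusted p below 0.05, and the median was 0.04. Of 26 listed caspases, apoptosome genes and caspase inhibitors, 23 were measured by a probe set with a single symbol. None of the 23 passed, 2 had an unadjusted p below 0.05 and the median was -0.03. Probe sets without a gene symbol entered no list, so a gene with only such probe sets was not read here. Of 22 p53 target genes, none passed and 2 had an unadjusted p below 0.05.

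**Figure D3:**
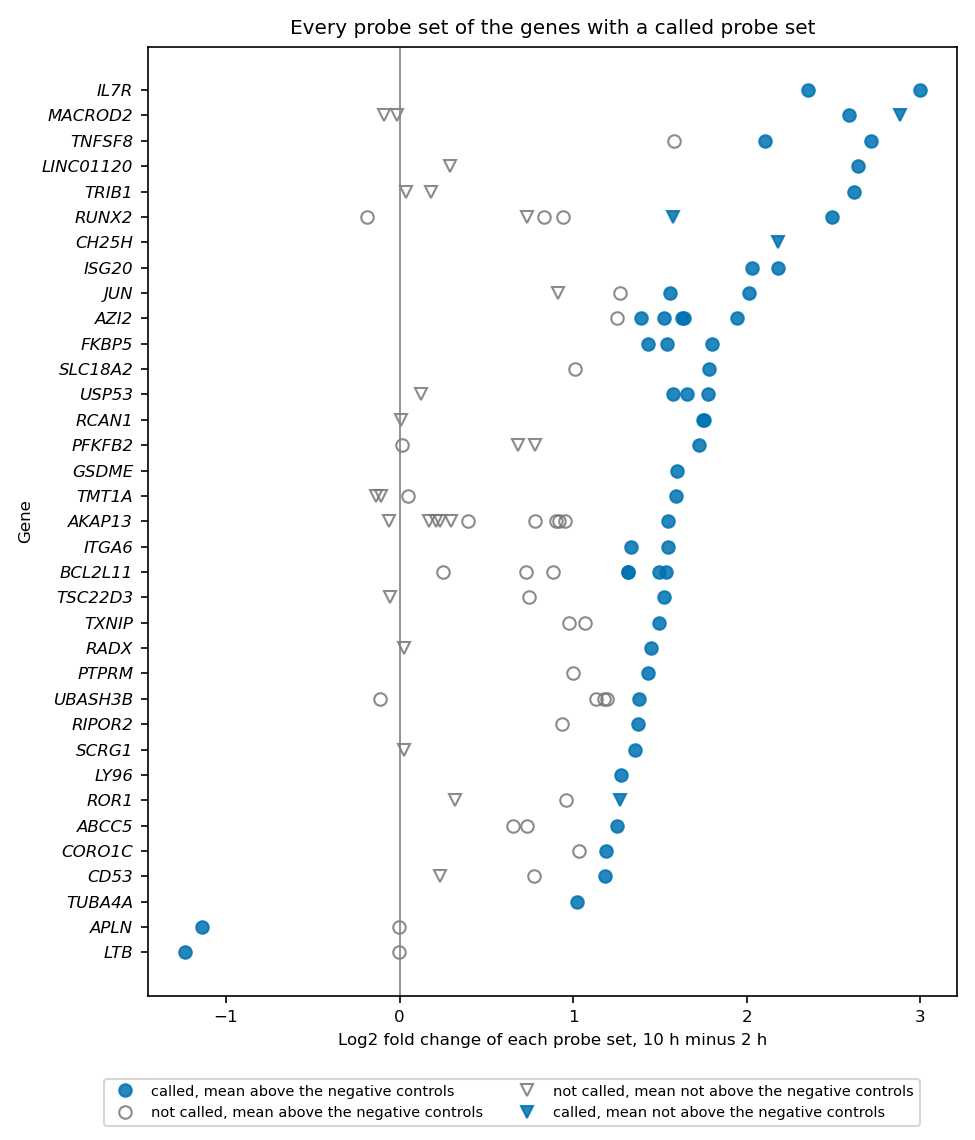
Log2 differences, 10 h minus 2 h, of every single-symbol probe set of the 35 genes with a passing probe set. Filled symbols passed, and triangles have a mean at or below the highest negative control. All 3 probe sets of FKBP5 and 5 of 6 of AZI2 are filled, against 1 of 2 for LTB and APLN.

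Single enzymes and transporters were also among the genes that rose. CH25H makes the oxysterol that lowers cholesterol synthesis, and read 3.66, 3.39 and 2.76 at 2 h and 5.64 and 5.27 at 10 h. All its 2 h values lay below the highest negative control, so its 4.53-fold difference (adjusted p = 0.00205) is against a level that was not measurable. MACROD2, an enzyme that removes ADP-ribose from proteins, read 5.73, 5.26 and 4.70 at 2 h, overlapping 5.48, 4.89 and 5.08 at 0 h, and 7.999 and 7.641 at 10 h. It rose by 2.59 ± 0.27 (adjusted p = 0.00061), or 6.02-fold. SLC18A2, the vesicular monoamine transporter, rose by 1.78 ± 0.23 (adjusted p = 0.00302) and TMT1A, a thiol methyltransferase, by 1.59 ± 0.22 (adjusted p = 0.00593). The other 3 probe sets of TMT1A differed by 0.05, -0.11 and -0.14 without passing, and 1 of them had a mean above the negative controls. RADX, which binds single-stranded DNA at replication forks, rose by 1.45 ± 0.21 (adjusted p = 0.00669), and its 2 h arrays (6.81, 6.87 and 6.98) overlapped the untreated ones. ISG20, an exonuclease of the interferon response, read 7.75, 7.40 and 7.26 at 2 h and 9.29 and 9.72 at 10 h and rose by 2.03 ± 0.22 (adjusted p = 0.00061) on the brighter of 2 passing probe sets.

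LINC01120, a long noncoding RNA gene, had the largest difference by brightest probe set. It read 5.25, 5.26 and 5.03 at 2 h, little above 4.71, 4.74 and 4.69 at 0 h, and 8.38 and 7.26 at 10 h. The 0 h values lay at about the highest negative control (4.73). The 10 h arrays differed from each other by more than the 2 h arrays did, and both lay far above every 2 h array. The rise was 2.64 ± 0.26, or 6.24-fold with a 95% interval from 4.25 to 9.17 (adjusted p = 0.000487). A second LINC01120 probe set, with a mean below the highest negative control, differed by 0.29 and did not pass.

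PFKFB2, a kinase that sets the level of a glycolytic activator, rose on 1 of its 4 probe sets (1.73, adjusted p = 0.0129), while its brightest read 0.01. ABCC5, an export pump for organic anions, rose on 1 of 3 probe sets (1.25). In the glycolysis list, TXNIP, which restrains glucose uptake, was the only one of 25 genes to pass, and 19 were negative with a median of -0.08. CH25H was the only one of 24 cholesterol genes to pass, with a median of -0.07.

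ITGA6, TUBA4A and CORO1C are genes of adhesion and the cytoskeleton. ITGA6, the integrin alpha 6 chain that binds laminin, read 10.34, 10.06 and 9.66 at 2 h and 11.36 and 11.34 at 10 h, a rise of 1.33 ± 0.24 (adjusted p = 0.0381), and both its probe sets rose. TUBA4A, an alpha tubulin, had the smallest rise by brightest probe set at 1.02 ± 0.18 (adjusted p = 0.0348), from 9.43, 9.38 and 9.41 to 10.43 and 10.42. CORO1C, an actin-binding coronin, rose on 1 of 2 probe sets (1.19) and differed by 1.04 on the other (adjusted p = 0.0962). Of 26 homing and adhesion genes, CD53 and ITGA6 rose, 15 were positive, and the median was 0.01. CCR4, a chemokine receptor, read 8.62, 7.50 and 7.61 at 2 h and 8.62 and 8.94 at 10 h, a difference of 0.87 ± 0.31 that did not pass. SCRG1, a gene first linked to prion disease, rose by 1.36 ± 0.25 (adjusted p = 0.0457).

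The 26 genes that rose differed in where they stood at 2 h. For 10 of them every 2 h array lay above every 0 h array, for 16 the 2 h and 0 h arrays overlapped, and for none did they lie below. Over all 19775 genes the 2 h arrays lay wholly above the 0 h arrays for 2.94% and wholly below for 1.10%. Because the 2 h arrays stand in both comparisons, these counts are a description of levels. By group means, 4 of the 26 were at or below the highest negative control at 0 h, 2 (TRIB1 and CH25H) at 2 h and none at 10 h.

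**Figure D4:**
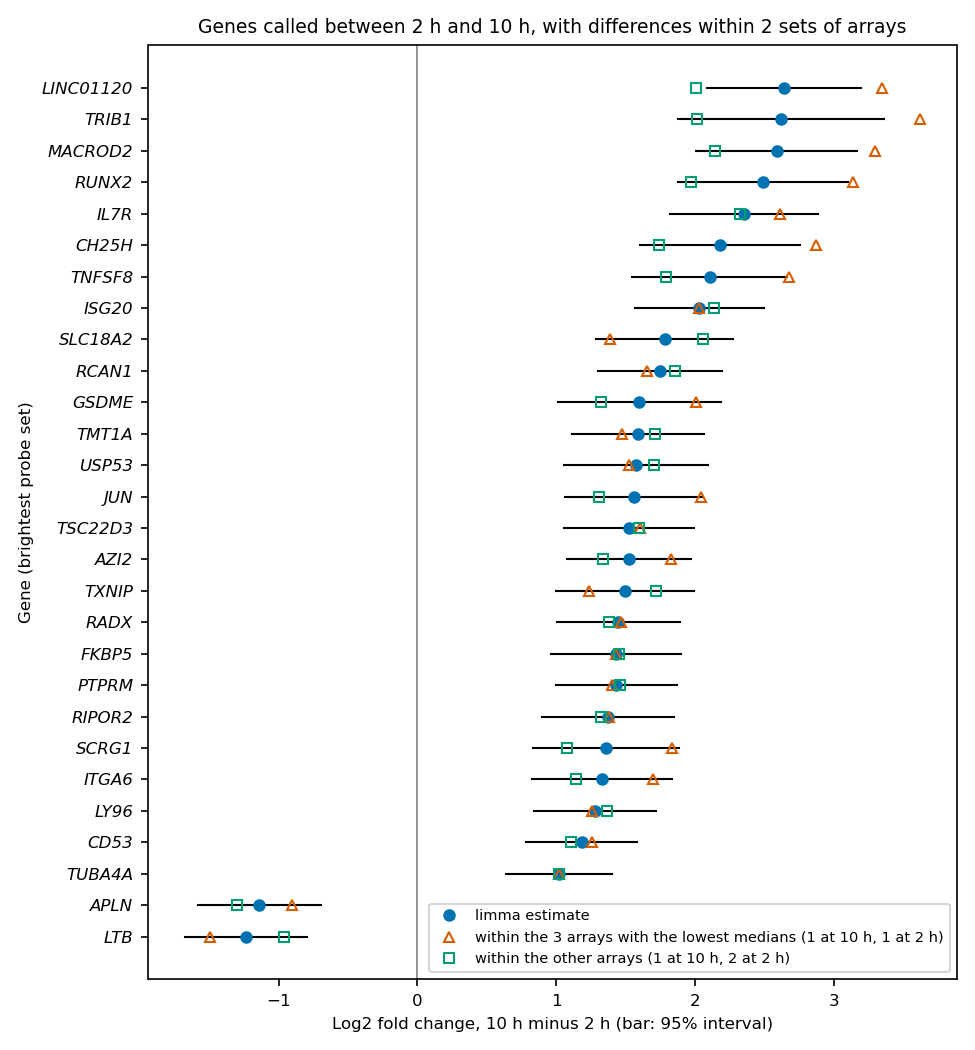
Log2 difference, 10 h minus 2 h, of the 28 genes whose brightest probe set passed, as the limma estimate with its 95% interval and as the differences inside the set of 3 low-median arrays and inside the remaining set. The limma estimates run from -1.24 (LTB) to 2.64 (LINC01120), and the sign of the other 2 values follows from the lack of overlap between the 2 h and 10 h arrays of these genes.

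The start regions of these genes were read for the receptor's recognition letters. RefSeq (GRCh38.p14) gave the 300 bases around the start, 250 before and 50 after, for 29 of the 35 genes with a passing probe set. The half-site AGAACA, on either strand, was present in 4 of the 29 (13.8%) and in 1738 of 15384 start regions of all genes (11.3%), so its share was near the background. The full 15-base palindrome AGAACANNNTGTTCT was in none of the 29 and in none of the 15384. The 4 regions with a half-site all belong to genes that rose between 2 h and 10 h, but 27 of the 29 regions belong to genes with a rising probe set. These regions are shown 5′ to 3′ on the gene's strand, with the half-site in capitals. They are MACROD2 (chr20:13995266-13995565, plus strand, half-site beginning at base -108 from the start), FKBP5 (chr6:35728534-35728833, minus strand, at base 0, the start itself), ITGA6 (chr2:172427086-172427385, plus strand, at bases -195 and -81) and SCRG1 (chr4:173399067-173399366, minus strand, at base -225, as the reverse complement).
MACROD2: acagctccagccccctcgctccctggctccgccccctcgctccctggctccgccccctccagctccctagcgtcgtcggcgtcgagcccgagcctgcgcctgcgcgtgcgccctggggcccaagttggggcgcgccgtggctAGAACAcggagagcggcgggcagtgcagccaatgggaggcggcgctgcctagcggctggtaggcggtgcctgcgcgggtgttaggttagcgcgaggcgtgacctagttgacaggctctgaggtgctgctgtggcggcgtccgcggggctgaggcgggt
FKBP5: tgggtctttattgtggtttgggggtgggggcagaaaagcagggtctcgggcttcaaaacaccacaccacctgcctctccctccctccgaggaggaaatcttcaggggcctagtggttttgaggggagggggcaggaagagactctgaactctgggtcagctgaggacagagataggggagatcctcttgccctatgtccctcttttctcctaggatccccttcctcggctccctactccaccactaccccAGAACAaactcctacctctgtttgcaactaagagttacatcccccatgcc
ITGA6: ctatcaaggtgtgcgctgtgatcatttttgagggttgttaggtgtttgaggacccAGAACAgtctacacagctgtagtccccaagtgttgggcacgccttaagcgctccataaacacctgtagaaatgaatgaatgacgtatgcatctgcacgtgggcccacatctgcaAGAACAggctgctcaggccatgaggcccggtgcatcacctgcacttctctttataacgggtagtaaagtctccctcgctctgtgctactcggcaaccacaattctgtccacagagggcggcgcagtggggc
SCRG1: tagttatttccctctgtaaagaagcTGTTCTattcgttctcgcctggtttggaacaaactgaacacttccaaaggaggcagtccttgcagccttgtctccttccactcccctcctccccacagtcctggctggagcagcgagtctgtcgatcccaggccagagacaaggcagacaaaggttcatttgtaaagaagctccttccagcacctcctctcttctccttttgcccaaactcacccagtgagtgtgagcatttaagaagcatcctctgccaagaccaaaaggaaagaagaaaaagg
A match of these letters is a description of the sequence, and binding was not measured.

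No gene of the growth lists passed, and most of their differences were negative. These lists too were chosen with earlier results of these data known. MYC, the growth-promoting transcription factor, read 11.28, 11.22 and 10.90 at 2 h, against 11.41, 11.18 and 11.16 at 0 h, and 10.14 and 10.35 at 10 h. Both 10 h arrays lay below all others, with a difference of -0.89 ± 0.20 (log2) and a 95% interval from -1.32 to -0.46 that did not pass over all probe sets (adjusted p = 0.206). Of 38 MYC and ribosome-biogenesis genes, 35 had negative differences with a median of -0.27, and the 10 h arrays lay below all 2 h arrays for 13 and above for 1. Over all genes 42.5% of differences were positive, and the arrays lay wholly below for 9.29% and wholly above for 5.43%. The list's mean was 9.72 to 10.03 at 0 h, 9.78 to 10.06 at 2 h and 9.52 and 9.79 at 10 h, so the times overlapped. Without 10 h replicate 1 the list's median was -0.12, beside 0.04 over all genes. None of the 38 passed in limma, and 7 had an unadjusted p below 0.05, all negative. Besides MYC, the lowest were LYAR (-0.85), POLR1B, a subunit of RNA polymerase I (-0.64), and NOP16 (-0.56), named after their values were seen.

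Among 53 replication and G1/S genes, 51 differences were negative, with a median of -0.25, and the 10 h arrays lay below all 2 h arrays for 21 and above for none, beside the same shares over all genes (42.5% positive, 9.29% below, 5.43% above). None passed in limma, and 5 had an unadjusted p below 0.05, all negative. Their mean was 9.29 to 9.47 on the 0 h arrays, 9.45 to 9.50 on the 2 h arrays and 9.11 and 9.34 on the 10 h arrays. Thus 10 h replicate 2 lay below all 2 h arrays but inside the untreated range. The low end of that range was 0 h replicate 2, one of the 3 low-median arrays, and 0 h replicates 1 and 3 read 9.45 and 9.47. Without 10 h replicate 1 the median was -0.10, beside 0.04 over all genes. The largest negative differences were those of UNG (-0.65), which removes uracil from DNA, TIPIN (-0.55) of the replication fork and CDC45 (-0.51) of the replicative helicase, named after their values were seen. The cyclin genes CCND3 (-0.16 ± 0.20) and CCND2 (0.08 ± 0.25) and the kinase gene CDK6 (-0.02 ± 0.19) overlapped between the times, as did the inhibitor gene CDKN1B (0.22 ± 0.20). Of 40 G2/M and mitosis genes, 22 were positive and 18 negative with a median of 0.03, none passed in limma, and 1 had an unadjusted p below 0.05.

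The Notch pathway drives T-cell leukaemia and controls both MYC and HES1. HES1, a repressor that Notch induces, read 7.67, 7.81 and 7.65 at 0 h, 7.30, 7.20 and 7.52 at 2 h, and 5.95 and 6.64 at 10 h. On this probe set, the brightest, the times did not overlap, and the late difference of -1.05 ± 0.22 did not pass (adjusted p = 0.126). Another HES1 probe set differed by -1.19 and the third by -0.08, neither passing, and on both the 2 h and 0 h arrays overlapped. NOTCH1 read 9.44, 9.59 and 9.31 at 2 h and 8.56 and 9.07 at 10 h, a difference of -0.63 ± 0.22 that also did not pass. Of 21 Notch receptors and targets, IL7R alone passed, the 10 h arrays lay below all 2 h arrays for 6 and above for 2 (9.29% and 5.43% over all genes), and the median was 0.01. NFKBIA, the inhibitor of NF-kB that glucocorticoids are known to induce, read 9.32, 9.65 and 9.05 at 2 h and 9.99 and 9.87 at 10 h, a difference of 0.59 ± 0.26 without passing.

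**Figure D5:**
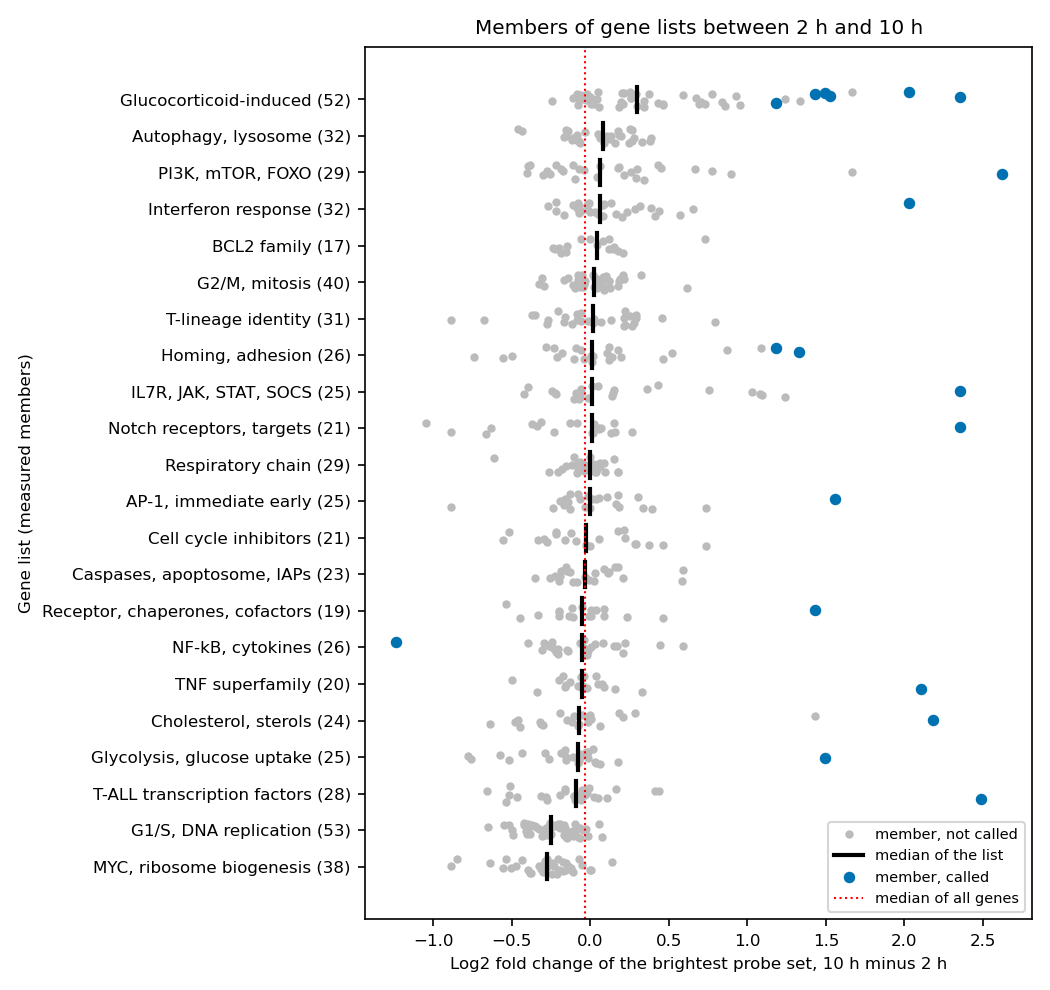
Log2 differences, 10 h minus 2 h, of the brightest probe sets of the members of 22 gene lists, each point a gene, with the list's median as a bar and the median of all genes (-0.03) dotted. The hormone-induced list has the highest median (0.30), and the MYC and ribosome list (-0.27) and the G1/S list (-0.25) the lowest. The lists were chosen with earlier results of these data known, so this order is a description.

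Other lists stayed near the median of all genes. ISG20 was the only one of 32 interferon-response genes to pass, and the list's median was 0.06. RUNX2 was the only one of 28 T-cell leukaemia transcription factors to pass, and 21 of these were negative, with a median of -0.09. Of 31 T-lineage genes none passed in limma, 2 had an unadjusted p below 0.05 and 16 were positive. Of 32 autophagy and lysosome genes none passed, none had an unadjusted p below 0.05 and the median was 0.08.

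Precision rested on the 2 arrays at 10 h. Without 10 h replicate 1, 8 genes rose and none fell, and without 10 h replicate 2, 8 rose and 1 fell. Without 2 h replicate 1, 2 or 3 the genes that rose numbered 27, 18 and 21, none fell, and 54, 33 and 40 probe sets passed. Without the 3 arrays with the lowest medians, which leaves 1 array at 10 h, no gene passed and 1 probe set did. When the probe set brightest in untreated cells stood for each gene, RUNX2, TRIB1, TSC22D3, SLC18A2 and PTPRM no longer passed. When only probe sets were used whose names carry no suffix, the mark of probes that can match several transcripts, the remaining probe sets of TSC22D3, RCAN1, TMT1A, JUN, PTPRM and LTB did not pass.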

How the data were processed

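RNA of 8 samples was hybridised, biotin labelled, to expression arrays of 54675 probe sets. The deposited values are log2 expression made by the authors with RMA, per the submitters' processing notes, which name no version of it. They were used as deposited, and the table held 0 columns of other samples. Gene symbols came from the platform annotation (41091 probe sets with 1 symbol, 1801 with several, 11721 with none), and 62 control probe sets were left out. Each gene was represented by its single-symbol probe set with the highest mean over all 8 arrays. The highest of 27 Bacillus control probe sets (1.52 to 4.73) set the background.

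The contrast 10 h minus 2 h was fitted with limma 3.58.1 in R 4.3.3 over all 8 arrays, with empirical Bayes variances and Benjamini-Hochberg adjustment over 42892 probe sets, and was tested on simulated data. Calls needed an adjusted p below 0.05. The number of arrays limits the precision.

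Genes were named where a single-symbol probe set passed, as the 3 members with the smallest adjusted p of a list with at least 2 passing members, or from a fixed panel of 31 genes, of which BBC3 was not analysed here. Other genes were named after their values were seen, as the text says beside them, or as fixed cell markers. The members, lists and panel were chosen with earlier results of these data known. Lists (762 genes measured of 839) were described by counts and medians. Alternatives changed the samples fitted, the representative probe set, suffix and background filters, normalization, variance model, array weights, blocks, arrays and threshold. Their effect is given in the closing section.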

Additional observations from a re-analysis of the deposited data

Results flagged for a closer look

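Among 11721 probe sets without a gene symbol, which the comparison did not use, 7 passed at an adjusted p below 0.05 in limma when fitted in the same way. The 10 h arrays lay above all 2 h arrays for each of the 7, beside 5.43% of all named genes. Probe sets that pass tend to lack overlap, so this is a description of the 7. They are singled out because the signal lies outside the annotated probe sets, and no gene is assigned to them here. Several of them can belong to 1 gene, so the 7 are not a count of genes. The largest of the differences was a rise of 1.99 ± 0.29 (log2, SE), from 6.56, 6.18 and 5.35 at 2 h to 7.82 and 8.21 at 10 h. The brightest of the 7 rose by 1.48 ± 0.19, from 10.02, 10.16 and 10.00 to 11.60 and 11.48. No group of arrays was large enough, at 2 or 3, for a single array to be tested as an outlier.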

How the results depend on the processing

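Of the values of single named genes under the alternatives, 839 kept their direction and their side of the threshold, 115 lost the call in the same direction, 10 gained one and 18 changed sign. The count of genes that rose (26) became 41 with a block that marks the 3 low-median arrays, 0 without those arrays and 15 at an adjusted p below 0.01. The genes that fell (2) became 0 with probe sets averaged, with the replicate block, without those 3 arrays and at 0.01, 1 without suffixed probe sets, and 4 with array weights or the low-median block. The probe sets called (55) became 87 with trended robust variances and with the low-median block, 1 without those 3 arrays and 27 at 0.01. Leaving out 1 array gave 8 to 27 genes that rose, 0 to 1 that fell and 17 to 54 probe sets. The replicate block gave 23 rises, 0 falls and 47 probe sets. Deviations of same-numbered 2 h and 10 h arrays correlated at -0.21 and -0.03. With 2 arrays at 10 h these values cannot show whether same-numbered arrays were paired.

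The alternatives for list medians were added after seeing the data. The G1/S median (-0.25) was -0.21 without suffixed probe sets, -0.18 with quantile normalization, -0.23 with the replicate block, -0.22 with the low-median block, -0.11 without those 3 arrays and -0.36 to -0.10 leaving out 1 array. The MYC and ribosome median was -0.42 to -0.12 leaving out 1 array, and the hormone-induced median stayed at 0.24 to 0.37 in 15 alternatives. The median over all genes moved as well, from -0.11 to 0.04 in the same 15. It was 0.04 without 10 h replicate 1 and -0.10 without 10 h replicate 2, so part of such a move is shared by all genes.

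Signs turned for TSC22D3 (-0.056) and NFKBIA (-0.32) without suffixed probe sets, and for BCL2L1 (0.0031) with quantile normalization and CCND2 (-0.045) with array weights. Without the 3 low-median arrays they turned for CCND2 (-0.061), PFKFB2 (-0.0075) and PMAIP1 (0.038). Leaving out 1 array gave differences of both signs for CD69 (-0.018 to 0.91), CCND2 (-0.10 to 0.20), MCL1 (-0.042 to 0.13), PFKFB2 (-0.018 to 0.0595), CDK6 (-0.081 to 0.079), BCL2L1 (-0.19 to 0.079), PMAIP1 (-0.58 to 0.17) and BCL2 (-0.505 to 0.032), none of which passed. The cause was not tested, apart from the fewer arrays or probe sets that some alternatives hold. BCL2L11, not called by its brightest probe set, passed with probe sets averaged (1.08, limma adjusted p = 0.00946). MYC passed with array weights (-0.97, limma adjusted p = 0.0349) and with trended robust variances. Levels at or below the background of 4.73 could not be told from the negative controls.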
